A study of Mus musculus with 16 samples.

Results

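The 975 probes described here are named by the array's design only by a position in the mouse genome (build mm9). Their signal was lower in primed epiblast stem cells (EpiSC) than in 3 kinds of embryonic stem cell culture, where it was detected. On all 4 EpiSC arrays 547 of them were still well above background, and on none were 241. The 975 were chosen by measured values, from 16194 position-named probes among the 55681 probes of the array. A probe was taken when the scanner software marked its signal as well above background on each of the 12 LIF serum, 2i and 2iSB arrays, and when its EpiSC mean lay at least 1 log2 unit below the mean of each of these 3 groups. Of the 4189 position-named probes detected on all 12 arrays, 975 met this rule. They lie at 516 named intervals, which join into 376 loci when intervals within 10 kb are merged, on 20 chromosomes.

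The study compared naive, primed and ground state pluripotency in lines of one mouse strain, 129/Ola, with 4 lines in each of 4 groups and 1 array for each line. The naive lines (LIF serum) came from pre-implantation embryos, grew in LIF and serum and were at passages 23 to 26. The ground state lines also came from pre-implantation embryos. The 2i lines grew in 2i and LIF (passages 22 to 24), and the 2iSB lines in 2i, the Activin, Nodal and TGF-beta receptor inhibitor SB431542, and LIF (passages 17 to 24). The primed lines (EpiSC) came from the epiblast of E6.5 embryos, grew in Activin A and bFGF and were at passages 24 to 28. LIF is a cytokine that sustains mouse embryonic stem cells, and 2i is a pair of inhibitors of the MEK and GSK3 kinases. The EpiSC group therefore differs from the others in both embryonic origin and medium, and these 2 differences cannot be told apart. The labels give the EpiSC samples the cell type ESC as well.

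Intergenic transcription units that do not code for protein often give rise to long non-coding RNAs, which are made by RNA polymerase II, are frequently spliced and polyadenylated, and tend to be more restricted to single cell types than messenger RNAs. In mouse embryonic stem cells some of them have been linked to the upkeep of pluripotency and to the repression of lineage genes. A position as a name says only that the array's designers assigned the probe to an interval and a strand, written F or R. Whether a gene of a later annotation covers or neighbours the interval, and the probe's own place and sequence within it, were not analysed here. Several probes usually share an interval, and they then report on the same stretch of DNA rather than on separate units.

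Signals are log2 processed intensities less the array's own 75th percentile, so 0 is the level that 75% of the probes on that array stay under. Between 51.5% and 63.9% of the probes on an array were well above background. The arrays lay on 2 slides. All 4 EpiSC arrays were on slide 2, together with LIF serum lines 3 and 4, 2i line 4 and 2iSB line 3, and the other 8 arrays were on slide 1, so slide and group partly overlap. With group means taken over slide 2 alone 703 of the 975 members (72.1%) still met the rule, and the rest had small differences, described further on. LIF serum lines 1 and 2 also carry another code in the labels than lines 3 and 4. Nanog, Esrrb and the other 13 genes of a naive pluripotency list averaged 4.47 to 5.15 per array in LIF serum, 4.93 to 5.47 in 2i, 4.85 to 5.59 in 2iSB and -1.03 to -0.87 in EpiSC. The genes of this list differed widely. Esrrb had a mean of -2.41 in EpiSC against 6.06 in LIF serum. Nanog was at 2.20 against 3.28, Klf4 at 3.90 against 4.44 and Klf5 at 2.36 against 3.16. Nanog and Klf5 were higher still in 2i and 2iSB. The 6 core pluripotency genes, Pou5f1 among them, averaged 4.10 to 4.21 in EpiSC and 3.63 to 4.84 elsewhere. The 9 primed epiblast genes, such as Fgf5, averaged 3.25 to 4.10 in EpiSC and -2.02 to 1.24 elsewhere. Of these, Otx2 went the other way, with a mean of 3.80 in EpiSC against 4.66 in LIF serum, 4.79 in 2i and 4.28 in 2iSB. Dnmt3b was lower in EpiSC (6.39) than in LIF serum (6.80), though above 2i and 2iSB. All 10 fibroblast genes, markers of feeder cells such as Col1a2 and Dcn, were above background on every EpiSC array, where their mean ran from 3.28 to 4.00, against -1.69 to 2.03 in LIF serum, -4.08 to -3.20 in 2i and -3.84 to -3.67 in 2iSB. The 6 measured genes of the 2-cell-like state, which marks a small fraction of embryonic stem cells, averaged 0.24 to 1.86 in LIF serum, -3.23 to -0.43 in 2i, -3.65 to -0.94 in 2iSB and -6.49 to -5.88 in EpiSC, where 5 of them were above background on no array. The part of either list in the values below was not tested. Since these are bulk samples, fewer cells of a type and less RNA per cell cannot be told apart.

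The EpiSC deficit of a member, meaning the lowest of the other 3 group means minus the EpiSC mean, had a median of 2.25 log2 units, with quartiles of 1.36 and 3.99 and a maximum of 10.24. It was at least 2 in 529 members, at least 4 in 242, at least 6 in 82 and at least 8 in 19. These values chose the members and are a description only. The typical member was a dim transcript: its median level was -1.97 in LIF serum, -1.67 in 2i, -1.68 in 2iSB and -4.69 in EpiSC. The median standard deviation between the 4 lines of a group was 0.43, 0.50, 0.45 and 0.33 in the same order. All 4 EpiSC arrays lay under all 12 other arrays for 829 members (85.0%). Among all 25370 probes detected on the 12 arrays, whatever their name, this held for 18.8%; the rule used this contrast, so nothing is read from the difference. In the other 146 members at least 1 EpiSC line reached the range of the other groups. The highest EpiSC value among these 146 came from line 1 in 41, line 2 in 39, line 3 in 44 and line 4 in 22, so no single EpiSC line accounted for them.

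**Figure D1:**
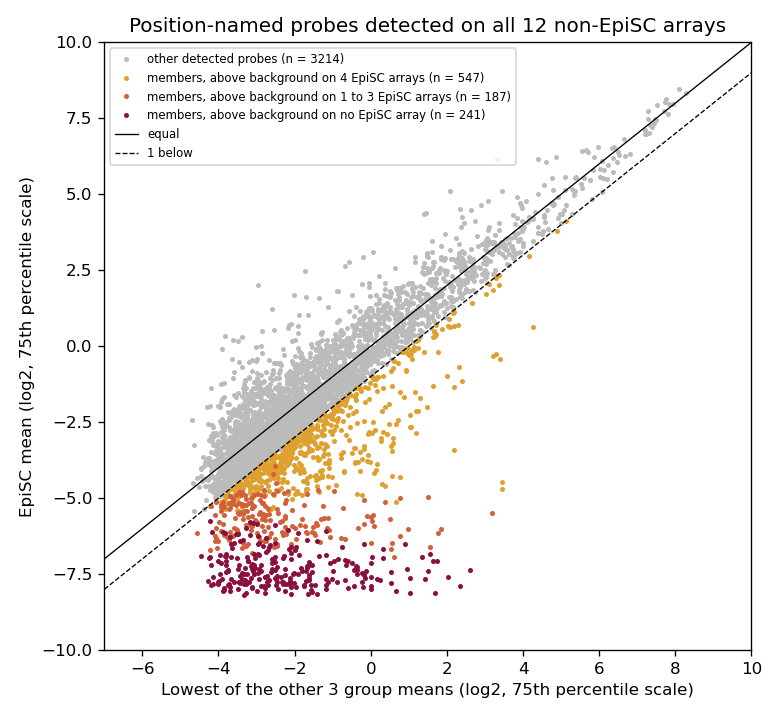
Each point is 1 of the 4189 position-named probes detected on all 12 non-EpiSC arrays. The x axis is the lowest of the LIF serum, 2i and 2iSB means and the y axis the EpiSC mean, both in log2 units relative to the array's 75th percentile; the dashed line marks 1 below equality. Grey points are the 3214 other probes, and the members are coloured by the number of EpiSC arrays on which they were well above background. The 241 members detected on no EpiSC array form a band at the bottom. Of these, 37 had a mean of 0 or higher over the 12 arrays, against 184 of all members.

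Detection separated the members into 2 main kinds. On all 4 EpiSC arrays 547 members were still well above background, so their RNA was lower but measured, with a median deficit of 1.46. On no EpiSC array were 241 members well above background. Another 66 were detected on 1 EpiSC array, 58 on 2 and 63 on 3. The 241 undetected members had a median level of -1.93 over the 12 arrays, against -1.49 for the 547, and 37 of them lay at 0 or higher there. For these 241 the EpiSC value is a bound, so the mean of the lowest group was set against, on each EpiSC array, the higher of the probe's own value and the lowest signal among probes well above background. By this measure the bound ran from 2.64-fold to 351-fold for the 241, with a median of 10.04-fold. That lowest signal is not a strict limit of detection. The leading probe at chr9:75330657-75332641, undetected in EpiSC, had -5.54 and -5.70 in EpiSC lines 3 and 4. The lowest signals there were -5.69 and -6.01. The bounds are therefore approximate, here and below. The bound was at least 10-fold in 122 of them and at least 100-fold in 14.

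**Figure D2:**
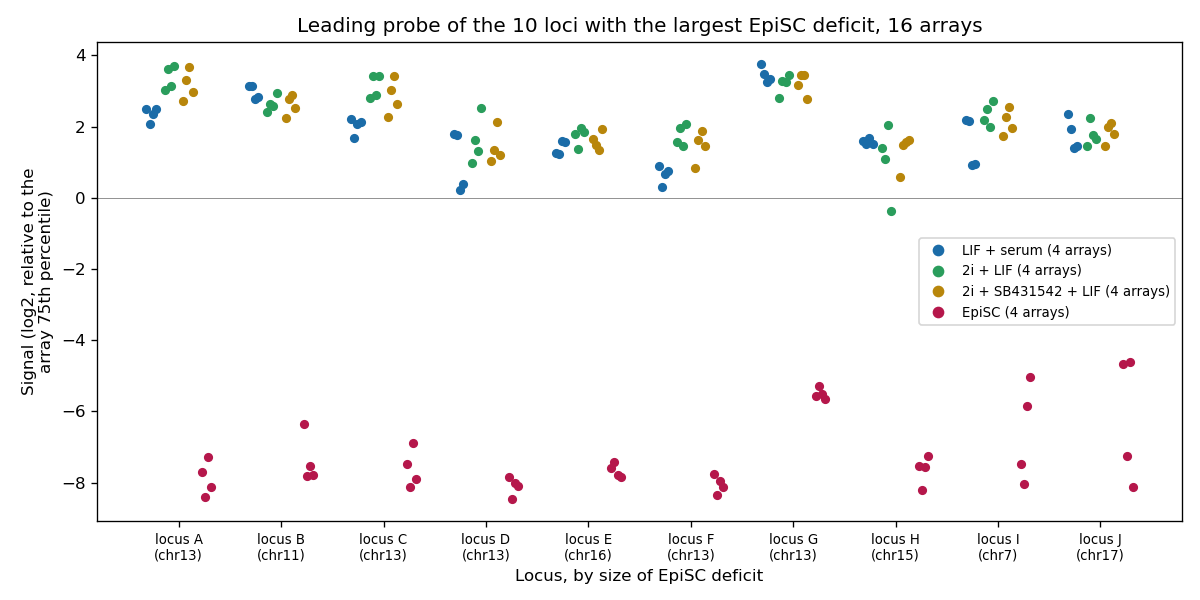
Signal on all 16 arrays for the leading probe of the 10 loci with the largest EpiSC deficit, ordered from A to J. The y axis is the log2 processed signal relative to the array's 75th percentile, and each point is 1 array, coloured by group, with 4 arrays in each group. The 12 non-EpiSC arrays of locus A lie between 2.08 and 3.71 and its 4 EpiSC arrays between -8.40 and -7.28; at loci I and J the EpiSC points spread more widely.

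Chromosome 13 held 5 of the 10 loci with the largest deficits, lettered A to J by the measured deficit of their leading probe. At 7 of them this probe was undetected on every EpiSC array, so its deficit could only be as large as its level outside EpiSC allowed, and the letters give no order of loss among the loci. Locus A, chr13:66381200-66410200 on strand R, had values of 2.51, 2.08, 2.35 and 2.49 in LIF serum, 3.03, 3.63, 3.15 and 3.71 in 2i, 2.71, 3.32, 3.68 and 2.97 in 2iSB and -7.70, -8.40, -7.28 and -8.13 in EpiSC. No EpiSC value was well above background, all 12 other values lay above 2, and the bound was 296-fold (deficit 10.24 as measured). Its 4 members had deficits of 8.01 to 10.24 and were all undetected in EpiSC, while the 1 detected probe of strand F had an EpiSC mean above the lowest other group mean (deficit -0.35).

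Locus B, chr11:97457180-97487074, had a bound of 351-fold, the largest among the 241 members undetected in EpiSC. Its leading probe, on strand F, gave 3.13, 3.16, 2.79 and 2.84 in LIF serum, 2.42, 2.62, 2.59 and 2.94 in 2i, 2.24, 2.79, 2.88 and 2.52 in 2iSB and -6.34, -7.81, -7.53 and -7.79 in EpiSC. All 7 detected F probes were members, with deficits from 3.36 to 9.97. On strand R 2 of 3 detected probes were members, with deficits of 2.58 and 1.12, and the third had an EpiSC mean above the lowest other group mean (deficit -1.12). The size of the deficit at this locus thus differed widely between strands and between probes.

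Loci C and F lie on the same stretch of chromosome 13 as A. Locus C, chr13:66888650-66902600 on strand R, had means of 2.02 ± 0.24 in LIF serum, 3.14 ± 0.34 in 2i, 2.85 ± 0.50 in 2iSB and -7.60 ± 0.54 in EpiSC (SD, n = 4 each), with a bound of 235-fold. Locus F, chr13:65716675-65765575 on strand F, had means of 0.66 ± 0.25, 1.76 ± 0.30, 1.46 ± 0.44 and -8.05 ± 0.25 in the same order, with a bound of 91.1-fold. The leading probes of A and C followed each other closely over the 12 non-EpiSC arrays: the difference between them had a standard deviation of 0.07, the smallest of the 136 pairs that the 17 leading probes form, whose median was 0.60. For A and F it was 0.11 and for C and F 0.10, and these were the 3 closest pairs. This likeness is a description over 12 arrays that share slides and scaling. Whether the probes can hybridise to each other's transcripts was not tested, since probe sequences were not used here.

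Locus D, chr13:62364360-62381775, is led by a probe on strand F at chr13:62376235-62376890, with 1.81, 1.76, 0.22 and 0.38 in LIF serum, 0.98, 1.63, 1.31 and 2.53 in 2i, 1.03, 1.34, 2.14 and 1.21 in 2iSB and -7.84, -8.47, -8.02 and -8.11 in EpiSC. Here the LIF serum lines were split, with lines 1 and 2 well above lines 3 and 4, yet all stood far above EpiSC. All 7 detected probes of the locus were members, 5 of them undetected in EpiSC. Locus E, chr16:8738782-8830148 on strand R, gave 1.25, 1.24, 1.58 and 1.58 in LIF serum, 1.79, 1.36, 1.96 and 1.85 in 2i, 1.65, 1.5, 1.34 and 1.94 in 2iSB and -7.60, -7.42, -7.80 and -7.84 in EpiSC. Its 12 non-EpiSC values had the narrowest range of the 10 leading probes. Its bound was 154-fold, and 8 of its 11 detected probes were members. The 6 members that share its named interval had deficits from 1.63 to 9.08, the widest range within any interval (7.45).

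Locus G, chr13:98221098-98480773, was the brightest of the 10 by its lowest group mean. Its leading probe, on strand F at chr13:98267049-98267604, had 3.76, 3.47, 3.25 and 3.34 in LIF serum, 2.79, 3.28, 3.26 and 3.45 in 2i, 3.17, 3.45, 3.44 and 2.79 in 2iSB and -5.56, -5.28, -5.52 and -5.64 in EpiSC. It was detected on 2 of the 4 EpiSC arrays, and the 4 EpiSC lines lay close together. All 11 probes detected at the locus were members, 8 of them undetected in EpiSC, and they came from both strands.

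At loci I and J the EpiSC lines differed among themselves. Locus J, chr17:38132217-38157667, is led by a probe on strand F with 2.34, 1.95, 1.41 and 1.46 in LIF serum, 1.44, 2.25, 1.75 and 1.64 in 2i, 1.45, 2.00, 2.10 and 1.80 in 2iSB and -4.68, -7.26, -4.60 and -8.11 in EpiSC. EpiSC lines 1 and 3 kept a measurable signal there and lines 2 and 4 did not, although all stood below every other array. Locus I, chr7:48794017-48815817 on strand R, had EpiSC values of -7.47, -8.03, -5.84 and -5.04 and was detected on 1 of these arrays, against means of 1.56 ± 0.72 in LIF serum and 2.34 ± 0.32 in 2i (SD, n = 4). Locus H, chr15:79795261-79796945 on strand R, was undetected in EpiSC (-7.53, -8.20, -7.55 and -7.27), with a bound of 119-fold. Its 2i values, 1.41, 1.09, 2.04 and -0.36, include 1 low line. On the arrays of slide 2 alone the leading probes of A to J had deficits from 7.28 to 10.30.

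Loci with many members show an EpiSC deficit read out by several probes. The most members, 13, were at chr9:75316023-75344401, all on strand F. These were all 13 of the probes detected there, and their deficits ran only from 3.13 to 3.59; all 13 met the rule on slide 2. Their leading probe had -2.75, -2.94, -2.59 and -2.68 in LIF serum, -2.43, -2.16, -1.82 and -1.89 in 2i, -1.84, -2.19, -2.52 and -1.96 in 2iSB and -7.64, -6.43, -5.54 and -5.70 in EpiSC. All 4 EpiSC lines were under every other array, and line 1 was the lowest. At chr8:91569369-91594119, 11 of 13 detected probes were members, with deficits from 1.61 to 6.45. Its leading probe, on strand R, had means of -0.52 ± 0.56 in LIF serum, -0.64 ± 0.45 in 2i, -0.55 ± 0.40 in 2iSB and -7.08 ± 0.58 in EpiSC (SD, n = 4).

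The second chromosome 8 locus, chr8:59966759-60002058, kept a measured signal in EpiSC at its leading probe. Its leading probe had 0.03, -0.48, -0.42 and -0.46 in LIF serum, 0.34, 0.77, 0.27 and -0.38 in 2i, -0.10, 0.48, 0.25 and 0.35 in 2iSB and -4.32, -3.39, -3.63 and -3.87 in EpiSC and was marked above background on each of the 16 arrays, and 10 of 12 detected probes there were members. At chr13:74712775-74756950, 11 of 13 detected probes were members with a median deficit of 1.46, and 8 of the 11 met the rule on slide 2. Larger deficits were found at chr11:50994911-51050704, with 9 members and a median deficit of 5.84, and at chr11:33414450-33450750, with 9 members and 4.87. At each of these 2 loci 8 members were undetected in EpiSC.

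Probes of 1 interval resembled each other more than members at large. The standard deviation of the deficit was 0.94 within intervals, pooled over the 224 with at least 2 members, and 1.90 over all members, and the median range within an interval was 0.67. The 516 intervals hold 2160 probes, of which 1205 were detected on all 12 arrays, 975 were members and 230 were not. Of these 230, 194 had a deficit between 0 and 1 and 36 at or under 0. Among the 319 intervals with at least 2 detected probes, 170 had members only. Intervals with members had a median length of 15.9 kb, against 11.9 kb for the intervals with detected probes and no member.

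Both strands of the same coordinates carried probes at 247 of the intervals' positions. At 48 of them both strands had members, at 89 only 1 strand had members although the other was detected too, and at 110 the other strand had no detected probe. At chr15:96984422-97000322 both of the 2 detected F probes and all 5 detected R probes were members, with largest deficits of 5.02 and 7.82, and all 7 were undetected in EpiSC. At chr11:33414450-33450750 the 3 detected probes of each strand were members, and at chr10:94900849-94928059 they were 5 of 6 on each strand. Overall 450 members were on strand F and 525 on strand R.

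Members were unevenly spread over the genome. They made up 37.3% of the detected position-named probes on chromosome 13 (85 of 228), 36.3% on chromosome 16 (57 of 157) and 36.1% on chromosome 10 (61 of 169). The lowest shares were 10.4% on chromosome X (16 of 154), 12.9% on chromosome 14 (26 of 201) and 14.0% on chromosome 19 (13 of 93). Probes that share a locus are not independent, so these shares are given without a test.

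**Figure D3:**
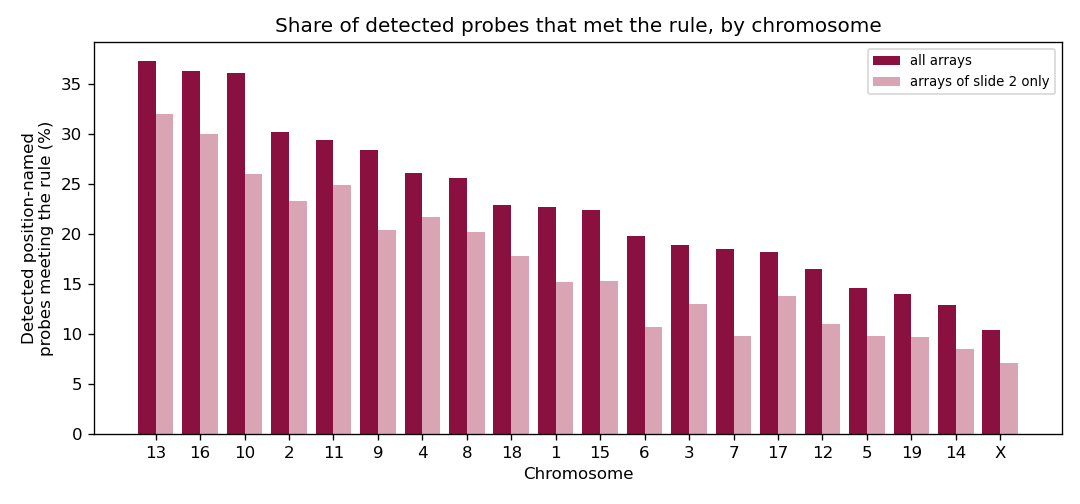
Bars give, for each chromosome, the percentage of position-named probes detected on all 12 non-EpiSC arrays that met the rule. Dark bars use all arrays and light bars only the arrays of slide 2, on which all EpiSC arrays lay. Chromosomes are ordered by the dark bars, from 37.3% on chromosome 13 to 10.4% on chromosome X; the light bars run from 32.0% to 7.14% at the same ends.

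Members also lay in dense stretches, whose part in the shares of the chromosomes was not measured. Between positions 145000941 and 147183905 of chromosome 4, 43 members at 13 loci on both strands made up 81.1% of the 53 detected probes, with a median deficit of 3.83 and 16 members undetected in EpiSC. On slide 2 42 of these 43 met the rule. On chromosome 13, 18 of 20 detected probes between 61703445 and 62786278 were members, with a median deficit of 2.39. Further along, between 65716675 and 66902600, 8 of 10 detected probes were members, at loci A, C and F, with a median deficit of 8.76 and 7 undetected in EpiSC. Over the whole window from 65 to 67 Mb, members were 8 of 16 detected probes, and the lowest deficit among the others was -0.35. Another stretch of the chromosome, between 98038568 and 98603323, held 15 members among 20 detected probes and includes locus G; their median deficit was 5.66. On chromosome 16, 17 of 20 detected probes starting between 8 and 10 Mb were members, 14 of them undetected in EpiSC, with a median deficit of 4.81. Over the 162 windows of 5 Mb with at least 10 detected probes, the median share of members was 15.4%. These stretches were singled out after their values were seen.

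The rule was met more often by position-named probes than by others. Of all 25370 probes detected on the 12 arrays 13.5% met it, and of those not named by position 11.6% did, against 23.3% of the position-named ones. Probes of RefSeq messenger RNAs (NM accessions) met it in 10.9% of cases, and those of RefSeq non-coding and predicted non-coding RNAs (NR and XR) in 21.8%. The mirrored condition, an EpiSC mean at least 1 above each other group with detection on all 4 EpiSC arrays, held for 10.1% of the position-named and 12.8% of the remaining probes. Position-named probes were dimmer, with a median level of -1.76 against 0.87. In each of 6 bins of level over the 12 arrays their share was the higher, from 18.3% against 16.1% under -3 to 15.96% against 7.37% at 1 and above. On the arrays of slide 2 alone the shares were 17.2% and 9.86%.

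Slide and group overlap in this design, and some members met the rule only with the arrays of slide 1 included. With group means taken over slide 2 only, which leaves 2 LIF serum arrays and 1 array each of 2i and 2iSB, 703 of the 975 members (72.1%) still met the rule, as did 722 position-named probes in all. The 272 that did not had small deficits over all arrays, with a median of 1.23 and a maximum of 2.26; on slide 2 their median was 0.45. Of the 146 members whose EpiSC arrays overlap the others, 123 were among these 272. All 241 members undetected in EpiSC met the rule on slide 2 too. In 97 members, at 83 loci, the slide 1 arrays were more than 1 above the slide 2 arrays in each of the 3 groups, and 96 of these 97 did not meet the rule on slide 2, where the median deficit of the 97 was 0.00. The same split was seen in 8.62% of the 3214 detected position-named probes that were no members, and in 1.66% of the other detected probes. At least 1 member met the rule on slide 2 at 243 of the 376 loci.

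**Figure D4:**
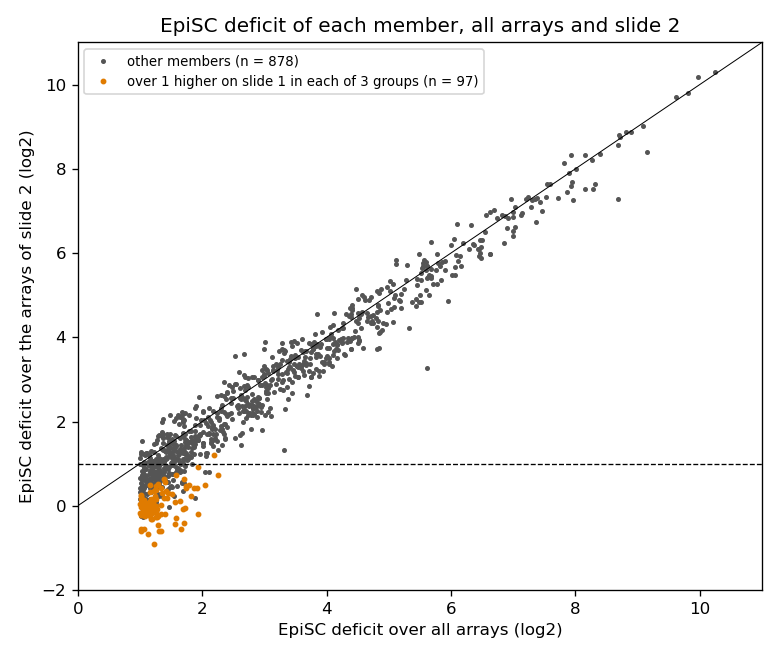
Each point is 1 of the 975 members, with its EpiSC deficit in log2 units over all arrays on the x axis and over the arrays of slide 2 on the y axis. The solid line marks equality and the dashed line a deficit of 1; orange points are the 97 members that were more than 1 higher on slide 1 in each of the 3 non-EpiSC groups. Large deficits lie along the line of equality, and the orange points lie at small deficits and around 0 on slide 2.

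Of the 3 members closest to the threshold, 2 show this pattern. Just inside it, chr12:81221532-81232030 on strand F (deficit 1.00) had 0.60, 0.54, -1.51 and -1.87 in LIF serum, 0.40, 0.89, 0.65 and -1.49 in 2i, 0.92, 0.36, -1.74 and 0.48 in 2iSB and -1.49, -1.33, -1.71 and -1.70 in EpiSC. Its values for LIF serum lines 3 and 4, 2i line 4 and 2iSB line 3, all on slide 2, were at the EpiSC level, and its deficit on slide 2 was -0.18. The probe at chr6:90745692-90777977 on strand F (deficit 1.00) split the same way, with -1.23, -1.35, -2.88 and -2.65 in LIF serum and a slide 2 deficit of 0.05. The third, at chr13:19611679-19620954 on strand R (deficit 1.00), had EpiSC values of -0.81, -2.49, -1.94 and -0.31, of which lines 1 and 4 overlapped the other groups. Just outside were another probe of that interval (deficit 0.998), a probe at chr1:134237581-134248506 on strand R (0.997) and one at chr17:56791549-56803877 on strand F (0.996).

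Differences among the 3 non-EpiSC groups were tested with limma over all 33275 probes detected in at least 1 group, with Benjamini-Hochberg adjustment. The rule set no direction among these groups, but it required detection in all 3 and each mean at least 1 above EpiSC. A probe lost in 1 of them could not be a member. The shares of members and of all probes tested are therefore not on equal terms. Calls needed an adjusted p below 0.05 together with at least a 2-fold difference. In 2i against LIF serum 87 members at 44 loci were higher (8.92%) and 28 at 14 loci were lower (2.87%). Among all probes tested 5.68% were called higher and 8.74% lower, and among the 3214 detected position-named probes that were no members 1.80% and 3.67%. In 2iSB against LIF serum 89 members at 37 loci were higher (9.13%) and 26 at 16 loci lower (2.67%), against 6.6% and 9.6% of all probes. Both comparisons use the same LIF serum arrays. The median difference of the members was 0.27 in 2i and 0.24 in 2iSB, against 0.06 and 0.05 over all probes. Of the 87 members called higher in 2i, 54 were undetected in EpiSC, and of the 89 called higher in 2iSB, 46 were. Among those called lower, 7 of 28 in 2i and 12 of 26 in 2iSB were undetected, and among all members 241 of 975.

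The choice of LIF serum lines moved these values. Against lines 1 and 2 only, the median differences were 0.01 and 0.02, and against lines 3 and 4 only 0.48 and 0.50. The median member level was -1.55 and -1.78 on LIF serum arrays 1 and 2 and -2.13 and -2.15 on arrays 3 and 4. Fibroblast genes split the same lines: Col1a2, a collagen chain, was at 5.47 and 5.08 in lines 1 and 2 and at 1.22 and 1.35 in lines 3 and 4. Their part in these medians was not tested. Within slide 1 the medians were 0.05 and 0.07, within slide 2 they were 0.26 and 0.14, and with slide as a block both were 0.14. Within slide 1, 65 members (6.67%) were called in 2i and 87 (8.92%) in 2iSB, against 7.85% and 8.67% of all probes. Within slide 2 these were 216 (22.15%) and 208 (21.33%), against 24.3% and 27.72% of all probes. The difference between 2i and LIF serum had the same sign on both slides for 86 of the 87 members called higher, with at least 1 on both for 55 of them, and for all 28 called lower. For 2iSB the sign held on both slides for all 89 and all 26. These members were called on the arrays of both slides together, so agreement in sign was largely fixed in advance and is a description only. Of the 115 members called in each comparison, 43 in 2i and 57 in 2iSB were also called within slide 1.

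**Figure D5:**
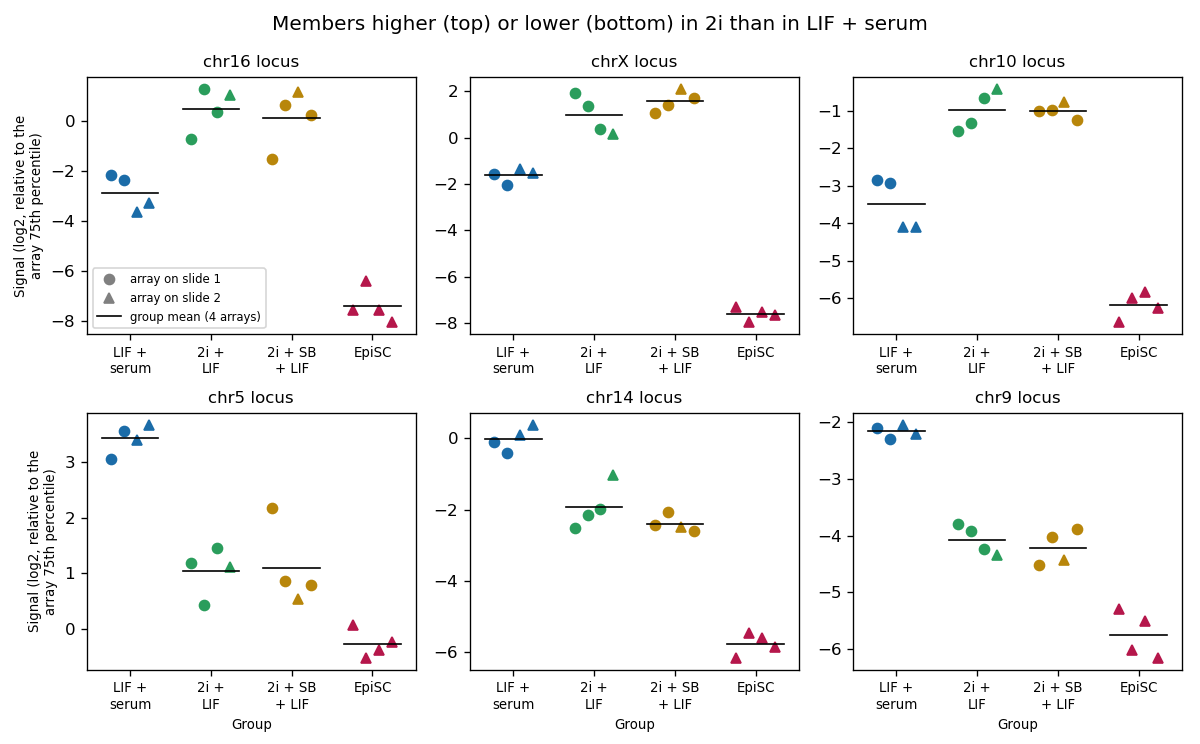
Signal on all 16 arrays for 6 members, in log2 units relative to the array's 75th percentile; circles are arrays on slide 1, triangles arrays on slide 2, and bars the mean of the 4 arrays of a group. The upper panels show members called higher, and the lower panels members called lower, in 2i and 2iSB than in LIF serum. In each panel the 4 LIF serum arrays do not overlap the 2i or 2iSB arrays, and EpiSC is lowest. The members shown were chosen for lack of overlap, and the rule set the EpiSC mean lowest.

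A first kind of member was present in LIF serum, higher in ground state cultures and undetected in EpiSC. The largest rise in 2i was at chr16:9158862-9162427 on strand F. Its values were -2.18, -2.37, -3.66 and -3.27 in LIF serum, -0.70, 1.29, 0.35 and 1.04 in 2i, -1.52, 0.64, 1.16 and 0.22 in 2iSB and -7.56, -6.40, -7.57 and -8.07 in EpiSC. The 2i lines were higher by 3.36 (SE 0.58, adjusted p = 0.0008) and the 2iSB lines by 3.00 (SE 0.58, adjusted p = 0.0016), with no overlap between LIF serum and either group, though lines within a group differed by more than 1 unit. A neighbouring interval, chr16:9249688-9275013 on the same strand, held 3 members, all called higher in 2i. Of these the 2 leading probes rose by 3.04 (SE 0.36, adjusted p = 4.9e-05) and 2.64 (SE 0.46, adjusted p = 0.00085).

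On chromosome X, 2 probes at chrX:98989930-98994344 on strand F rose together. The dimmer had -1.58, -2.05, -1.34 and -1.53 in LIF serum, 1.94, 1.39, 0.37 and 0.14 in 2i, 1.07, 1.44, 2.11 and 1.72 in 2iSB and -7.30, -7.97, -7.54 and -7.67 in EpiSC, a difference of 2.59 (SE 0.35, adjusted p = 0.00012) in 2i and 3.21 (SE 0.35, adjusted p = 1.9e-05) in 2iSB. The brighter rose by 2.32 (SE 0.37, adjusted p = 0.00047) and 2.91 (SE 0.37, adjusted p = 7e-05), from a LIF serum mean of 0.03 ± 0.46 (SD, n = 4). Both were undetected on every EpiSC array, with bounds of 18.7-fold and 58.4-fold.

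The locus with the most calls was chr10:94900849-94928059, where all 10 members, 5 on each strand, were called higher in both 2i and 2iSB. Its R probe with the largest rise had -2.84, -2.92, -4.10 and -4.09 in LIF serum, -1.54, -1.33, -0.66 and -0.41 in 2i, -1.0, -0.98, -0.76 and -1.24 in 2iSB and -6.66, -6.00, -5.84 and -6.27 in EpiSC. The rise was 2.51 (SE 0.33, adjusted p = 0.0001) in 2i and 2.49 (SE 0.33, adjusted p = 8.9e-05) in 2iSB. Its leading F probe, at -3.12 ± 0.33 in LIF serum and -7.96 ± 0.29 in EpiSC, rose by 1.67 (SE 0.31, adjusted p = 0.0014) and 1.48 (SE 0.31, adjusted p = 0.0028). Locus A also rose in both, by 1.02 (SE 0.26, adjusted p = 0.011) in 2i and 0.81 (SE 0.26, adjusted p = 0.033) in 2iSB, the latter being under 2-fold. At the leading probes of loci B, D, E, G, H, I and J neither difference passed the test, and the values at J were -0.02 (SE 0.62, adjusted p = 0.99) and 0.05 (SE 0.62, adjusted p = 0.97). The probe at chr10:39386908-39390947 on strand F rose by 2.37 (SE 0.46, adjusted p = 0.0017) in 2iSB but had an EpiSC deficit of only 1.37 and stayed detected on all 4 EpiSC arrays.

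A second, smaller kind of member was lower in the ground state cultures than in LIF serum. The rule already placed EpiSC below 2i and 2iSB, so the further step down to EpiSC was fixed by the choice of members. The largest drop in 2i was at chr5:35975265-35982561 on strand F, where 2 of 8 detected probes of both strands were members. The first had 3.06, 3.56, 3.41 and 3.68 in LIF serum, 1.19, 0.43, 1.46 and 1.11 in 2i, 2.18, 0.87, 0.55 and 0.80 in 2iSB and 0.08, -0.52, -0.38 and -0.23 in EpiSC. The difference was -2.38 (SE 0.32, adjusted p = 0.00011) in 2i and -2.33 (SE 0.32, adjusted p = 0.00011) in 2iSB, with no overlap between LIF serum and either group. Both members there had EpiSC deficits near the threshold, 1.31 and 1.00, and on slide 2 alone 0.81 and 0.32.

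At chr14:21029450-21049451 on strand F, 3 of 4 detected probes were members and all were called lower in 2i. The leading one had -0.11, -0.41, 0.10 and 0.39 in LIF serum, -2.52, -2.15, -1.98 and -1.03 in 2i, -2.42, -2.07, -2.48 and -2.60 in 2iSB and -6.18, -5.49, -5.63 and -5.86 in EpiSC, a difference of -1.91 (SE 0.28, adjusted p = 0.00023) in 2i and -2.39 (SE 0.28, adjusted p = 3.5e-05) in 2iSB. This leading probe was detected on 1 EpiSC array. Another member of the interval, with a deficit of 2.96, was detected on all 4, at an EpiSC mean of -4.40. The probe at chr9:78367773-78374723 on strand F was undetected in EpiSC and differed by -1.90 (SE 0.21, adjusted p = 2.9e-05) and -2.05 (SE 0.21, adjusted p = 1.3e-05). On chromosome 1, the probes at chr1:87343550-87362900 and chr1:85117750-85129200, both on strand F, were lower in 2i, with differences of -2.07 (SE 0.28, adjusted p = 0.00012) and -1.92 (SE 0.25, adjusted p = 8.6e-05). The locus with most members called lower in 2i was chr17:15357376-15385701 on strand R, with 6 of its 7 members.

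Between 2iSB and 2i no member was called. At an unadjusted p under 0.05 there were 41 of 975 (4.21%), and the smallest adjusted p of limma was 0.34; among all 33275 probes 24 were called (0.0721%). Within slide 2, where each of these 2 groups has 1 array that the fit assumes to vary like the others, 69 members (7.08%) were called, against 11.4% of all probes, and within slide 1 no member and 3 of all probes were. Among the members named above, the largest differences of 2iSB from 2i were -0.83 (SE 0.36) and -0.80 (SE 0.46) at the 2 leading probes of chr16:9249688-9275013, with adjusted p-values of 0.99 and 1.00.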

How the data were processed

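Total RNA of 16 lines (129/Ola mice, 4 per group) was labelled with Cy3 from 100 ng and hybridised to 16 one-colour Agilent arrays, per the labels' protocols. The deposited scanner files hold processed signal intensities made by Agilent Feature Extraction 10.7.1.1 against build mm9, per the file headers. The authors also deposited a table of 42316 probes whose values follow log2 of these signals (slopes 0.892 to 1.014); the sources used here do not state how it was normalized or centred. It served as an alternative only.

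Control spots and spots marked as outliers were left out, spots of one probe were averaged, and each array's log2 signal was reduced by its own 75th percentile. The 33275 probes detected throughout at least 1 group were fitted with limma 3.58.1 (R 4.3.3; lmFit and eBayes, 16 arrays, 4 group means), with Benjamini-Hochberg adjustment over all of them; the fit was tested on simulated data. Tables were joined in Python 3.11.15. The 3 contrasts among LIF serum, 2i and 2iSB were tested. The contrasts with EpiSC were used by the rule and are not tested. The number of arrays limits the precision, and the labels do not say that lines are from separate animals, so p-values cover the spread between these lines. A missing spot in 6 members left 15 arrays for those probes.

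The members and the gene lists were chosen with earlier results of these data known. Named loci were the 10 with most members (ties going to the larger deficit), the 10 with the largest deficit, the 5 members with the largest rise and the 5 with the largest fall called in each tested contrast with no overlap between groups, and the 3 probes on either side of the threshold. Neighbouring genes, which need mm9 gene positions, and probe sequences were not analysed here. Mean signals were not used here, so the normexp alternative took the median signal and median background with an offset of 50. Same-numbered lines did not deviate together (7 of 24 correlations were over 0.1), so replicate numbers were not taken to pair samples.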

Additional observations from a re-analysis of the deposited data

Results flagged for a closer look

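In 7 of the groups of 4 arrays of 37 named probes, 1 line stood apart from the other 3 by Dixon's criterion, which flags about 1 group in 20 by chance. At chr8:91571643-91576878 on strand R, 2iSB line 1 was at 0.05 and the others between -0.82 and -0.68. At chr8:59994074-60002058 on strand F, LIF serum line 1 was at 0.03 and the others between -0.48 and -0.42. At chr1:87343550-87362900 on strand F the same line was at -0.05 against -0.93 to -0.78. At chr11:51003332-51033057 on strand R, 2i line 1 was at -0.33 against -1.47 to -1.30. Locus H, chr15:79795261-79796945 on strand R, had 2iSB line 1 at 0.59 against 1.47 to 1.63. A second probe of chr14:21029450-21049451 on strand F had 2iSB line 2 at -1.03 against -1.61 to -1.52. At chr6:90745692-90777977 on strand F, just inside the threshold, 2i line 4, the only 2i array on slide 2, was at -2.69 against -1.42 to -1.19. In 5 of the 7 the line that stood apart was line 1 of its group, on slide 1.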

How the results depend on the processing

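The number of position-named probes that met the rule was 566 after normexp background correction, of which 565 are among the 975. It was 529 with a threshold of 2 and 1737 with a threshold of 0.5. With the array median as scaling it was 657, all among the 975, and with quantiles 765, of which 755 are. Both counts are within 1.5 times of 975, but membership depends on the scaling. It also stayed within 1.5 times with detection on at least 9 of the 12 arrays (1409), with a floor (973) and in the authors' table (676, of which 664 are among the 975). The same held on slide 2 only (722, an alternative chosen after seeing the data). With each array left out in turn the number ran from 877 to 1115.

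In place of the 115 members called in each comparison with LIF serum, 2iSB gave 73 after normexp (7.49%, against 9.6% of all probes). Within slide 1 2i gave 65 calls (6.67%, against 7.85% of all probes). Within slide 2 the calls were 216 in 2i, 208 in 2iSB and 69 between 2iSB and 2i, or 22.15%, 21.33% and 7.08% against 24.3%, 27.72% and 11.4% of all probes, the ground state groups having 1 array each there. Against LIF serum lines 3 and 4 only, 212 (21.74%) and 187 (19.18%) were called, against 22.28% and 21.77% of all probes. The median member difference was 0.046 (2i) and 0.070 (2iSB) within slide 1, 0.0063 and 0.021 against LIF serum lines 1 and 2 only, and 0.48 and 0.50 against lines 3 and 4 only; the cause was not tested. With each array left out in turn, 99 to 142 members were called in 2i, 100 to 135 in 2iSB and 0 between them. In 2i these were 10.15% to 14.56% of members, against 11.96% to 15.95% of all probes. In 2iSB they were 10.26% to 13.85%, against 13.6% to 17.73%. Both medians ran from 0.16 to 0.39. With the replicate number as a block, 113 (11.59%) were called in each comparison with LIF serum and 0 between 2iSB and 2i. Of all probes 13.69% were called in 2i and 15.59% in 2iSB. With slide as a block, 121 (12.41%), 123 (12.62%) and 0 were called, against 14.88%, 16.82% and 0.1% of all probes. The search for neighbouring genes and its alternatives were not run.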
